A study of Caenorhabditis elegans with 2 samples.

Results

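K12H4.5 is a short protein-coding gene of the nematode Caenorhabditis elegans with 1 strong ChIP-seq peak upstream of its start. It was picked from 19985 protein-coding genes because its promoter holds 1 of the 10 highest peaks of the series and that peak has no annotated small RNA gene (tRNA, snoRNA, snRNA, microRNA or piRNA gene) within 200 bp. The rank and signal of the peak chose the gene, so they are given as a description with no test.

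The samples were 2 biological replicates of embryos of mixed stages from the strain OP727, pooled over both sexes, obtained by egg bleaching, with a labelled age of 1 hour. Both carried the unc-119(tm4063) mutation and the integrated transgene wgIs727, which holds ceh-83 with TY1, EGFP and 3xFLAG tags and a working copy of unc-119. They formed 1 group, with no second genotype or treatment. The labels do not say which promoter drives the tagged protein, and both replicates came from the same strain. An antibody against GFP pulled down chromatin sheared to between 200 and 800 bp. No library of untagged animals was used here, so a peak is a region enriched over the authors' control, and whether CEH-83 itself sits there was not tested. No source used here states the number of reads, so the depth behind each value is unknown.

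CEH-83 belongs to the homeodomain proteins, a class of transcription factors that bind DNA through a helical domain and many of which recognise short sites with a TAAT core. In ChIP-seq, sites where a protein is held on chromatin appear as peaks of sequenced fragments, and the top of a peak is called its summit. The irreproducible discovery rate (IDR) keeps peaks whose ranks recur between replicates. K12H4.5 has no described function in the annotations used, where its product is an uncharacterized protein.

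The peak spanned chrIII:8043859-8044077 on ce11, a stretch of 219 bp in intergenic DNA, with the summit at base 126 counted from the left. The sequence of the plus strand, which is also the strand of K12H4.5, is shown because all 4 lists of regions placed their highest local signal on it. Capitals mark the runs that occur at least 2 times within the region, at a minimum length of 8 bases.
K12H4.5 peak: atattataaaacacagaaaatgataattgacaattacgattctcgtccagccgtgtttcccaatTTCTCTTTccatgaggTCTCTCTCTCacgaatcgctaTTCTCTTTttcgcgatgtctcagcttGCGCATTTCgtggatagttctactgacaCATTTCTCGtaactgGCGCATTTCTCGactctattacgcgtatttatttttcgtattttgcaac

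K12H4.5 itself occupied chrIII:8044487-8044780 on the plus strand as 1 exon of 294 bp. Its annotated start was also the start of its coding sequence, so the Ensembl annotation gives it no 5′ untranslated region and no separate transcription start. Offsets below are from this annotated start.

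The peak was the ninth highest of the IDR list, with a signal of 1271 in the IDR list and in the pooled list from which it was drawn. The signal is the authors' own value per region, set against their control, and serves here to rank regions within a list. In replicate 1 the peak had a signal of 572 and rank 9, and in replicate 2 a signal of 698 and rank 8, each among 30000 regions. Both replicates therefore placed it among their 10 highest regions. The signal was 11.9 times the median region of the pooled list and 10.8 times that of replicate 1, the lowest ratio among the 3 relaxed lists. Against the median of the IDR list, 228, it was 5.57 times. Of all pooled regions, 4.19% were in the IDR list, and of pooled regions with no small RNA gene within 200 bp, 3.19% were. The rule used these calls, so nothing is read from these shares.

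**Figure D1:**
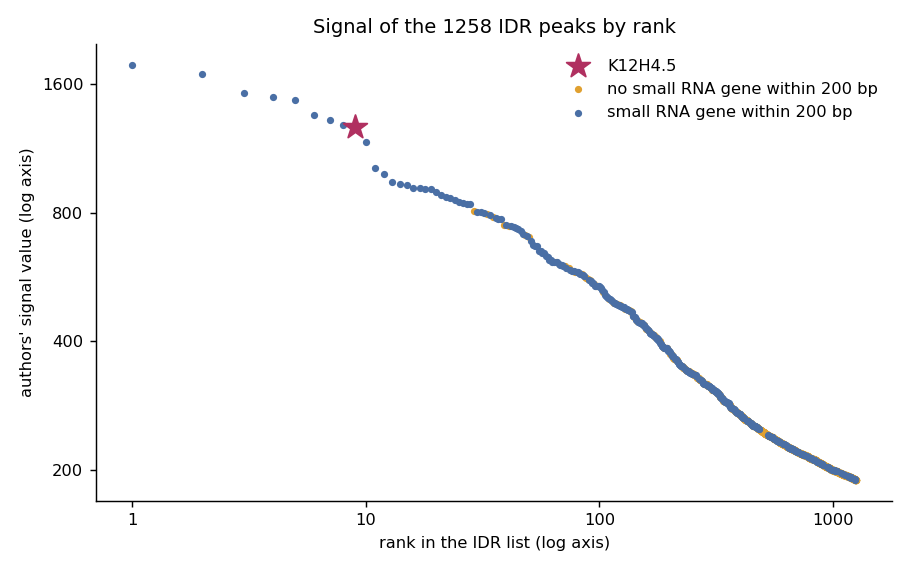
Signal of the 1258 IDR peaks on a log axis against their rank on a log axis, with K12H4.5 as a star, peaks with no small RNA gene within 200 bp in orange and peaks with one in blue. The star at rank 9 and signal 1271 stands among blue points, and the next orange point is at rank 29 with a signal of 806.

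Around the cutoff of the rule, the peak at rank 10 had a signal of 1169 and its summit inside the tRNA gene C04A11.t1 on the X chromosome, and the peak at rank 11, just outside, had a signal of 1016 at the snoRNA gene ZK994.7. The summits of the other 9 of the 10 highest peaks lay at most 88 bp from a small RNA gene. Of the 50 highest peaks, 8 had no small RNA gene within 200 bp, and K12H4.5 was the only one of these among the 25 highest. Over the whole IDR list such peaks were the majority, 918 of 1258 (73.0%).

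The replicate summits stood 29 bp apart, at -532 bp from the K12H4.5 start in replicate 1 and at -503 bp in replicate 2. That is wider than the median of 9 bp over the other IDR peaks matched in both replicates and within their interquartile range of 2 to 34 bp. At the 42 peaks among the 50 highest with a small RNA gene within 200 bp, the median was 4 bp (interquartile range 1 to 12.5 bp). Of these 42, 38 had replicate summits closer together than at K12H4.5. On the log2 scale, the ratio of replicate 1 to replicate 2 was -0.13 at K12H4.5 after the median ratio of all IDR peaks was subtracted. The interquartile range over the other IDR peaks was -0.20 to 0.21, and the value at K12H4.5 lay inside it.

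**Figure D2:**
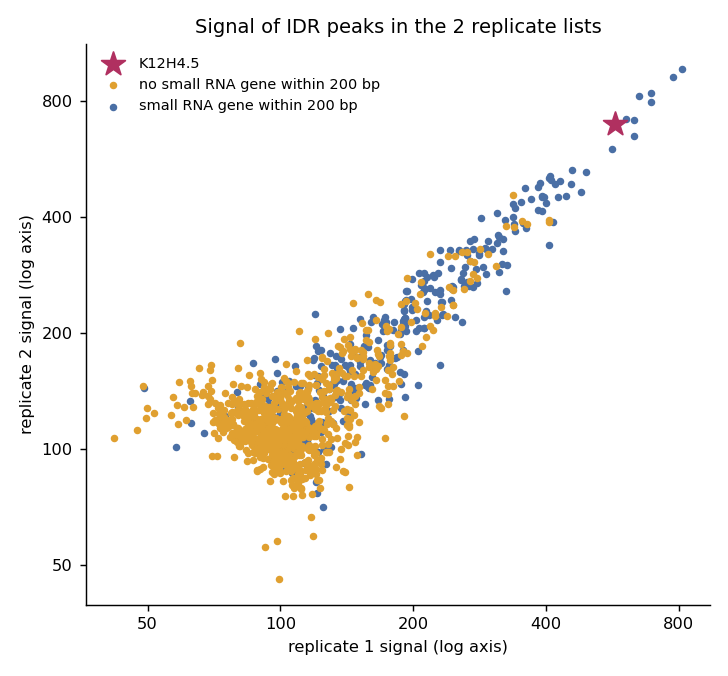
Signal of the IDR peaks that had a summit within 100 bp in both replicate lists, replicate 1 across and replicate 2 up, both on log axes, with K12H4.5 as a star and colours by small RNA genes within 200 bp. The star at 572 and 698 lies among blue points, the highest peaks of both lists.

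The peak was narrow. Its width of 219 bp was the eighth smallest of the IDR list, where all but 13 peaks were 444 bp wide. Of these 13 narrow peaks, 12 had a small RNA gene within 200 bp, and K12H4.5 was the 1 that did not. K12H4.5 was chosen as a peak among the 10 highest with no such gene, so this count largely follows from the choice. Narrow peaks were confined to the top of the list, with none below rank 43. Each of the 10 highest peaks was narrow, at 128 to 339 bp, so the width at K12H4.5 was usual for its rank. The 394 other promoter peaks with no small RNA gene within 200 bp were all 444 bp wide. The replicate regions were narrow as well, at 194 bp in replicate 1 and 204 bp in replicate 2, against 444 bp for all but 9 and 10 regions of those lists. Width comes from the same region calls as the signal and was therefore not tested.

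In all 4 lists together, 7 regions had their summit within 5 kb of the K12H4.5 start, of which 4 were the strong peak in each list. The pooled list had 1 further region, with a signal of 82.8 and rank 29224, spanning chrIII:8041081-8041524. Its summit stood at -3184 bp, inside dpf-6, a gene of the dipeptidyl peptidase family. Replicate 2 had a further region at nearly the same place, chrIII:8041182-8041625, with a signal of 49.3, rank 23861, and a summit at -3083 bp, just past the end of dpf-6. Both signals were close to the lowest of their lists, 81.8 and 44.5.

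Replicate 1 instead had a second region on the side of the strong peak that faces K12H4.5. It spanned chrIII:8043932-8044375 with a width of 444 bp, a signal of 69.4, rank 5240 and a summit at -333 bp. It shared 131 bp with the strong region, and its summit stood 199 bp from the stronger one. Such an overlapping second region was common, at 35.3% of the IDR peaks matched in replicate 1 and 37.4% of those matched in replicate 2. Among the 13 narrow peaks it was found for 3 in replicate 1 and 4 in replicate 2. Neither replicate 2 nor the pooled list had a second region there.

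**Figure D3:**
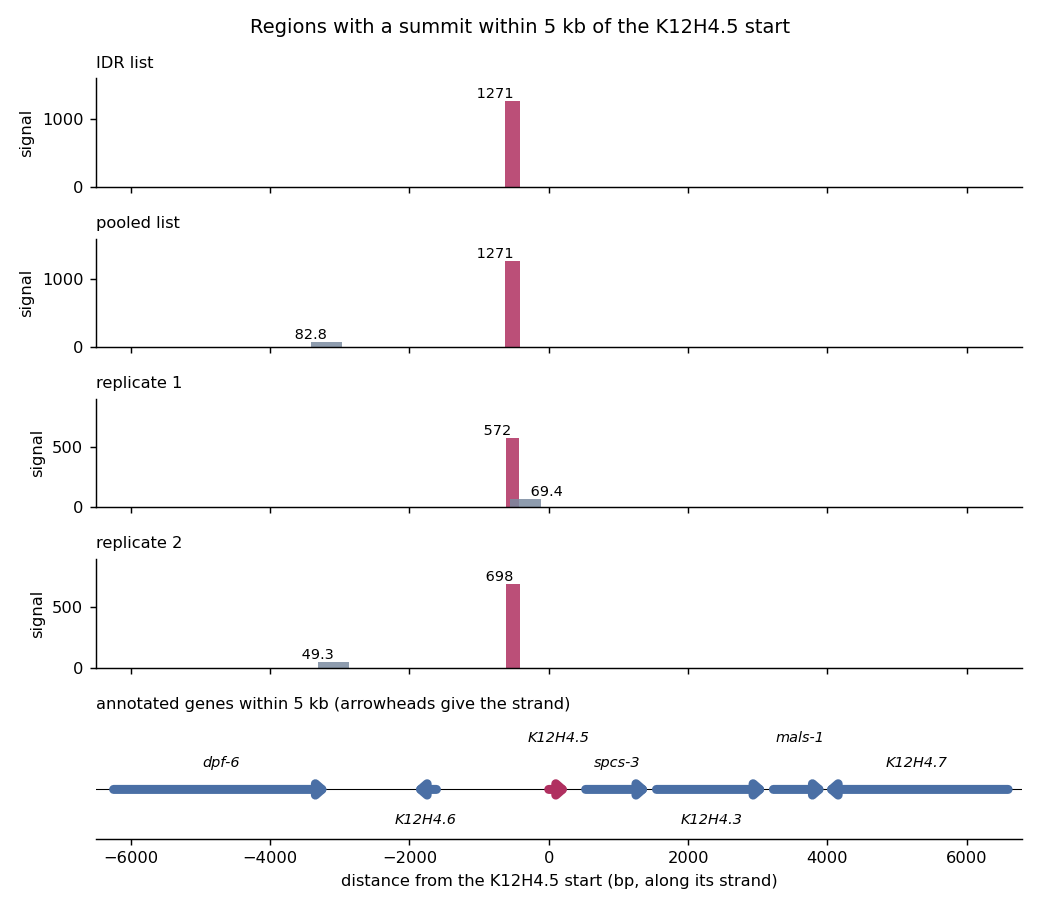
Regions of the IDR, pooled and replicate lists with a summit within 5 kb of the K12H4.5 start, drawn as bars over the span of each region with the authors' signal as height (linear axes from 0, each list on its own scale), above the annotated genes. The tall bar, with its summit at -532 bp in replicate 1 and at -503 bp in the other lists, stands in the gap between K12H4.6 and K12H4.5, and the other bars reach at most 82.8.

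In the pooled list the signal at K12H4.5 was 15.3 times that of the highest other region within 5 kb of the summit. That region, at 82.8, was close to the lowest signal of the list, 81.8. The ratio was therefore near the highest that the signal at K12H4.5 could give in this list. The signal that chose the peak is the numerator, so a high ratio partly follows from the choice and is given as a description. Among the 50 highest peaks, the 38 that had both a small RNA gene within 200 bp and such a neighbour had a median ratio of 6.92 (interquartile range 3.88 to 8.69). Their 3 highest ratios were 12.5 at the rank 6 peak beside the snoRNA gene T06C12.16, 12.2 at rank 5 and 11.9 at rank 1. Over all 1216 other IDR peaks with a neighbour the median was 1.55.

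The order of these ratios leaves out 41 IDR peaks with no other pooled summit within 5 kb, which have no ratio and are more isolated than K12H4.5 in this list. One of them was the rank 4 peak, with a signal of 1490. In replicate 2 alone the ratio at K12H4.5 was 14.2, and 1 other peak with a neighbour was higher, at 15.6. In replicate 1 alone, where the overlapping second region is the highest neighbour, it was 8.24 and 11 other peaks were higher.

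The next pooled summit was 2681 bp away, against a median of 895 bp (interquartile range 226 to 1809 bp) at the 394 other promoter peaks with no small RNA gene. Only 1 other pooled summit lay within 5 kb, as at 36 of these 394 peaks, while 12 of them had none and their median was 4. Among the 42 peaks of the 50 highest with a small RNA gene within 200 bp, 8 had 1 and 4 had none, with a median of 2.5. At 10 of these 42 the next pooled summit was farther than 2681 bp. The nearest other IDR peaks were 62.7 kb further along the chromosome, at the tRNA gene C14B9.t1 with a signal of 402, and 189 kb before, near the ribosomal protein gene rpl-35 with a signal of 342. K12H4.5 had the highest of the 223 IDR peaks on chromosome III.

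**Figure D4:**
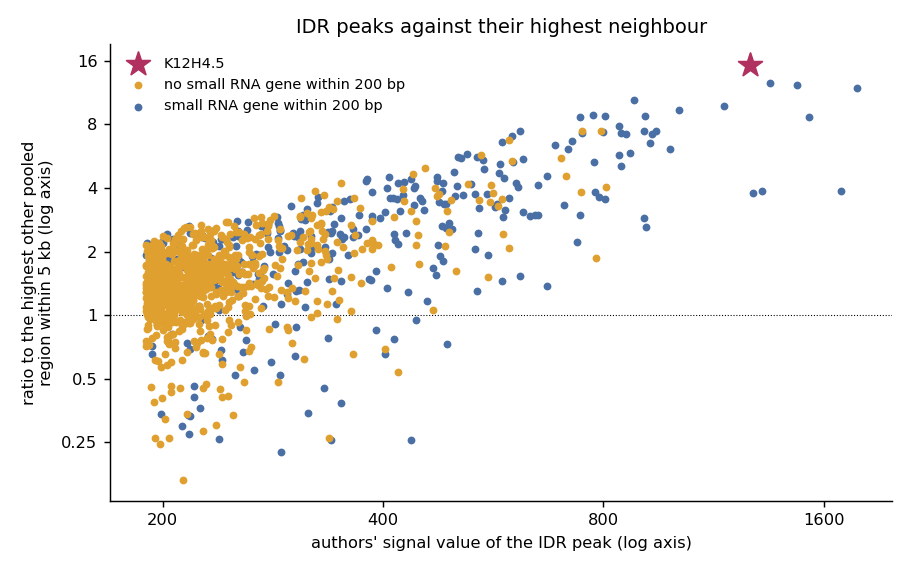
Signal of each IDR peak on a log axis against its ratio to the highest other pooled region within 5 kb of its summit on a log axis, with K12H4.5 as a star and colours by small RNA genes within 200 bp. The star at 1271 and a ratio of 15.3 is above the other points, of which the highest is at 12.5, and the 41 peaks with no other region within 5 kb are not drawn.

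No annotated non-coding RNA gene was close to the peak. The nearest of any class was K12H4.11, listed only as ncRNA, 15195 bp further along. The nearest small RNA gene was the tRNA gene K12H4.t1 at chrIII:8069405-8069476, 25421 bp from the summit, inside the gene body of pros-1 and with no IDR summit within 200 bp of its own. The nearest piRNA gene, 21ur-11860, was 110599 bp away, and the nearest snoRNA gene, C50C3.13, 121556 bp away. The nearest microRNA gene, mir-356.1, was 183728 bp away, the nearest lincRNA gene, linc-116, 430556 bp, the nearest antisense RNA gene, anr-34, 743431 bp, and the nearest snRNA gene, the spliced leader gene sls-2.18, 901587 bp. The nearest pseudogene was C30A5.4, at 178242 bp. RefSeq gave the same nearest gene and distance for each of the 5 small RNA classes.

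The distance of 25421 bp was greater than that of 240 of the 394 other promoter peaks with no small RNA gene within 200 bp, whose median was 17620 bp, and 154 of them were farther. Of the 50 highest peaks, the only one farther from a small RNA gene was that of ftt-2, which encodes a phosphoserine-binding adaptor protein, at 39710 bp.

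The protein-coding genes around the peak fell into a pair that points away from it on either side. K12H4.6, at chrIII:8042550-8042875 on the minus strand, also encodes an uncharacterized protein and has its start 1109 bp from the summit. The gene-free stretch between K12H4.6 and K12H4.5 was 1611 bp long, and the summit stood in the part nearer to K12H4.5. Among the 394 other promoter peaks with no small RNA gene, 141 (35.8%) also lay between divergent genes, in stretches with a median of 780 bp (interquartile range 417 to 1800 bp). The K12H4.5 summit was 503 bp from the nearest gene, farther than 130 of these 141 summits, whose median was 169 bp. Over all 394 the median offset from the gene start was -193 bp, and 73 summits stood farther upstream than -503 bp.

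After K12H4.5, 3 genes followed on the same strand with short spacers. The first was spcs-3, for a subunit of the signal peptidase complex, which removes signal peptides from proteins entering the endoplasmic reticulum, 236 bp past the end of K12H4.5. K12H4.3, for a homologue of the ribosome biogenesis protein BRX1, followed after 102 bp, and mals-1, named for assembly of the large subunit of the mitochondrial ribosome, after 99 bp. In C. elegans, closely spaced genes on 1 strand are often transcribed together as operons, and whether these are was not tested. The summit stood 1033 bp upstream of spcs-3, just outside the promoter window of 1000 bp upstream to 200 bp downstream of a start, 2050 bp upstream of K12H4.3 and 3728 bp upstream of mals-1. Only the weak second region of replicate 1 fell in the spcs-3 window, at -863 bp. K12H4.7, for a putative serine protease, ended 4466 bp from the summit on the minus strand. A single peak in this position cannot be assigned to 1 of these genes by distance alone.

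Of the 14 protein-coding genes with a start within 25 kb, K12H4.5 was the only 1 with an IDR summit in its promoter window. The rule chose K12H4.5 for that summit, so only the lack of one at the other genes is an observation. The share with an IDR summit there was 3.02% over all protein-coding genes, so such a lack is usual. Among those with a pooled summit in the window it was 8.46%. Pooled summits were found at 2 further genes, F44B9.10 with a signal of 85.4 and rank 27214, and dpf-6 with 92.8 and rank 22322. Of all 19985 protein-coding genes, 7129 had a pooled summit in the promoter window.

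The sequence under the summit was moderately rich in G and C and had AT-rich flanks. Within 50 bp of the summit 46.5% of the bases were G or C, close to the medians of 45.5% at the other promoter peaks with no small RNA gene and 47.5% over all other IDR peaks. It was below the median of 54.5% at the 42 peaks among the 50 highest that do have a small RNA gene within 200 bp, and above the 37.6% of pooled regions with no IDR summit within 500 bp. The 100 bases before the region held 29% and the 100 bases after it 22%. The summit window held 8 CG dinucleotides, against a median of 5 over all IDR windows and 3 over all pooled windows. On the plus strand 63.4% of its bases were C or T, and 15.3% of IDR windows were more one-sided on either strand.

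**Figure D5:**
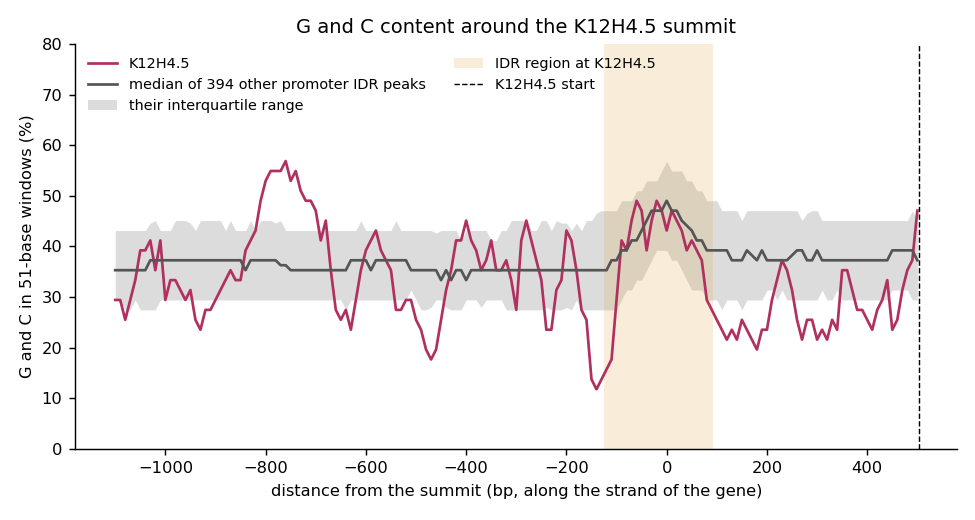
Percent of G and C in 51-base windows by distance from the summit along the strand of the gene, for K12H4.5 (red line) and for the 394 other promoter IDR peaks with no small RNA gene within 200 bp (median and interquartile range), with the IDR region shaded and the K12H4.5 start dashed. At the summit the red line is at 43.1% and the median of the others at 49.0%, and 200 bp after it 23.5% against 37.3%. The order is reversed 200 bp before the summit, with the red line at 43.1% and the median at 35.3%. The red line reaches its highest value, 56.9%, outside the region at -760 bp.

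All words of 31 bases within 100 bp of the summit occurred 1 time in the genome, so the sequence was unique at that word length. The same was true of 359 of the 394 other promoter peaks, and of 23 of the 42 strong peaks at small RNA genes. Of the region, 16.9% was in lower case in the RefSeq sequence, which marks repeats, against 35.7% of the genome.

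Of 12 short sequences searched on both strands within 50 bp of the summit, 1 was found. GAGAGA, as its complement TCTCTC, occurred at 3 overlapping positions in the run TCTCTCTCTC shown above, the first 45 bp before the summit. It was present in 13.6% of IDR windows, 15.9% of windows at promoter peaks with no small RNA gene, and 7.13% of all pooled windows. The homeodomain site TAATTA was absent from this window and was in 2.31% of IDR windows, against 4.03% of all pooled windows. TAAT was also absent here and was in 41.4% of IDR windows, against 57.1% of all pooled windows. In the whole region TAAT occurred 4 times and TATAAA 1 time. GTTCGANNC, the core of the B box inside tRNA genes, was not found at K12H4.5 and was in 9.94% of IDR windows and in 1.27% of windows at promoter peaks with no small RNA gene. The A box, the other internal element of tRNA genes, was also not found here and was in 3.02% of IDR windows. There was no match to GGGCGG, the core of Sp1 sites, which 7.47% of IDR windows held, or to CACGTG, an E box, which 2.38% held. At K12H4.5 there was neither a run of 6 T bases, in 25.9% of IDR windows, nor the splice acceptor sequence TTTCAG, in 8.74%. The window also lacked the TATA box sequence TATAAA, present in 6.12% of IDR windows. It lacked CTGCGTC, in 2.62% of them, and held no TGTCGG, found in 3.58%. A match or its lack describes these letters in this window only.

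The capitals in the sequence above also show 2 words of 9 bases that recur on the same strand. GCGCATTTC began 2 bp and 45 bp after the summit, and CATTTCTCG began 30 bp and 48 bp after it, so that the second copies of both words overlap. GCGCATTTC was present within 100 bp of 12 of the 1258 IDR summits and CATTTCTCG within 100 bp of 8, with 849 and 1758 copies in the genome. The words were found by looking for repeats in this region, so their recurrence here is not a separate result.

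The genes whose promoter peaks were most alike in rank over the pooled, replicate 1 and replicate 2 lists were taken from 497 other genes with an IDR summit in the promoter window and no small RNA gene within 200 bp. The likeness was the distance in log10 rank over these 3 lists. Nearest were ears-2, for the mitochondrial enzyme that charges tRNA with glutamate, and uncp-18, for a syntaxin-binding protein. They are a divergent pair that shares 1 peak, with a signal of 806, ranks of 29, 24 and 39, and a distance of 0.956. T13C5.6, for a protein with a phosphatidic acid phosphatase domain, followed with a signal of 795 and a distance of 1.02, then ftt-2 with 782 and 1.03, and rpl-3, for a protein of the large ribosomal subunit, with 745 and 1.16.

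All 5 genes ranked lower than K12H4.5 in each of the 3 lists. K12H4.5 was chosen for its rank and signal, so this order and the signal ratios given next come largely from that choice. The signal at K12H4.5 was 1.58 times the shared peak of ears-2 and uncp-18 and 1.71 times that of rpl-3. The summits stood at -51 bp from ears-2, -41 bp from uncp-18, -174 bp from T13C5.6, -554 bp from ftt-2 and -264 bp from rpl-3. GAGAGA was within 50 bp of the T13C5.6 summit and of none of the other summits among these genes. The peaks at T13C5.6 and ftt-2 lay on the ncRNA genes C14F11.14 and F52D10.7. Of the 8 peaks among the 50 highest with no small RNA gene within 200 bp, 4 had no non-coding gene of any class within that distance: those of K12H4.5, of ears-2 and uncp-18, of rpl-3, and of M01F1.9, the last named after its values were seen.

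Beside the signal of 1271 and rank 9 by which K12H4.5 was chosen, the highest pooled region over ceh-83, the gene of the tagged protein, or within 1 kb of it had a signal of 202 and rank 971.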

How the data were processed

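The data were 4 deposited narrowPeak lists on ce11. According to the file listing that came with them, the authors called a relaxed list for each replicate and one for the pooled replicates, each against a control alignment, and made the IDR list out of these 3. The aligner, caller and IDR threshold are not given in the sources used. The signal value (column 7), as the authors deposited it, ranked regions within a list only. The deposited score in column 9 was not used. Summits were the region start plus column 10, and coordinates count from 1.

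Genes came from Ensembl release 115, with symbols and products from RefSeq by WormBase identifier, and sequence from RefSeq, all on WBcel235, the assembly of ce11. All regions lay within its chromosomes. Overlaps, words and sequences were computed with Python 3.11.15, pandas 2.3.3 and numpy 2.4.6, and the functions were tested on simulated data. Replicate summits were matched within 100 bp, taking the region of highest signal. With 1 gene and 1 group of 2 replicates no significance test was made. K12H4.5 and all lists were chosen with earlier results of these data known. The rule for named genes took those within 5 kb of K12H4.5, the nearest small RNA gene of each class, the 10 highest peaks, the 5 most alike in rank, genes within 25 kb with an IDR summit in the promoter window, and ceh-83. The rule does not cover some of the genes given, such as those at the next IDR peaks and at weak pooled summits, and these were picked with their values in view. An annotation gap cannot be told apart from a lack of small RNA genes.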

Additional observations from a re-analysis of the deposited data

How the results depend on the processing

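The main values, not all those reported, were recomputed under 1 or more alternatives each, which gave 45 alternative values in all, 5 of them from settings chosen after seeing the data, and 28 of the 45 lay within the spread between replicates or within 1.5 times for counts. The peak ranked 1 in the pooled list once regions with a small RNA gene within 200 bp were set aside, which follows from the rule that chose the gene. With replicate 1 left out, the rank was 8, the offset -503 bp and the distance to the nearest small RNA gene 25421 bp. The G and C content was then 46.5% and the signal ratio to the highest neighbour 14.2. With replicate 2 left out, these values were, in the same order, 9, -532 bp, 25450 bp, 47.5% and 8.24. The lower ratio came with replicate 1 alone, where the overlapping second region is the neighbour. The pooled list had 1 region within 2.5 kb and 1 within 5 kb when only its 2500 highest regions were kept. The distance to the nearest gene was 15195 bp over every non-coding class and 25328 bp from the edge of the region. The midpoints of the replicate regions were 8 bp apart. With no margin around small RNA genes, 34 of the 50 highest peaks counted as lying away from them, and of the 25 highest 4% did with the margin of 200 bp, against 16% of the 50 highest. The G and C content was 41.8% within 100 bp of the summit and 39.3% over the whole region. Of the 12 sequences, 2 were found within 100 bp of the summit and 3 in the whole region. Both stretches hold more bases than the main window, and why the counts differ was not tested. No paired analysis was possible because the replicates form 1 group. Depth is unknown, so it sets no limit that can be stated.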
